A study of Sus scrofa with 8 samples.

Results

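The mucosa of neobladders lined with peritoneum was compared with the mucosa of the native bladder across all expressed genes, in 4 of the 8 libraries of the series. The 4 libraries were taken by their labels: the 2 labelled as mucosa of the neobladder from the experimental group and the 2 labelled as mucosa of the normal bladder. An ileal neobladder is a urinary reservoir built from small bowel, and in this study the animal's own peritoneum replaced the bowel mucosa inside it. All samples came from Guizhou minipigs aged 8 months, and messenger RNA was sequenced from fresh tissue after Smart-seq2 complementary DNA synthesis. The other 4 libraries, 2 of normal peritoneum and 2 of mucosa of the neobladder from the control group, entered 1 of the 2 fits and are given below as levels only. Nothing in the labels gives the lining of the control neobladder, the time since surgery, or the animal behind each library, so the 2 replicates of a group may share 1 animal. The p-values therefore measure the spread between these samples, which may be technical.

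The bladder is lined by urothelium, a layered epithelium whose surface cells carry plaques of uroplakin proteins and which rests on a connective tissue rich in fibroblasts and collagen. The aryl hydrocarbon receptor is a transcription factor that is switched on by aromatic compounds and turns on genes of oxidising enzymes of the CYP1 family together with its own repressor, AHRR. Before a cell copies its DNA, the origin recognition complex loads the MCM helicase, which CDC45 and the GINS complex then convert into the moving form, so the RNAs of these proteins are abundant in dividing cells and scarce in resting ones.

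The 4 libraries held 9.92 to 11.03 M counts. Experimental replicate 1 stood apart in that 22761 genes had at least 1 count there, against 19219 to 19761 in the other 3. Levels below are counts per M library counts (CPM) on one scale for all 8 libraries, on which 3 counts in 1 of the 4 libraries equal 0.224 to 0.278 CPM. Fold changes are log2 values, experimental minus native. The tissue label was checked first with markers. The summed level of the 6 tested uroplakin and plaque genes was 4676 and 4973 CPM in native bladder and 1782 and 5214 CPM in experimental neobladder replicates 1 and 2, against 317 and 579 CPM in peritoneum and 47.8 and 122 CPM in control neobladder. UPK2, a uroplakin, stood at 987 and 1051 CPM in native bladder and at 334 and 1142 CPM in experimental neobladder, so that the groups overlapped and experimental replicate 1 was low. The mesothelial transcription factor WT1 had 0 counts in 3 of the 4 libraries and 0.0927 CPM in experimental replicate 2, against 27.7 and 25.3 CPM in peritoneum. The summed level of enterocyte brush border and lipid handling genes was 582 and 689 CPM in native bladder and 606 and 522 CPM in experimental neobladder, against 53766 and 169746 CPM in control neobladder. In whole tissue, fewer cells of a type and less RNA per cell cannot be told apart.

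The comparison asked how far the mucosa of the peritoneum-lined reservoir differed from that of the native organ. Experimental mucosa held more RNA of the aryl hydrocarbon receptor targets CYP1A1, CYP1A2, CYP1B1 and AHRR. It also held more RNA of the squamous genes KRT4 and IVL and of the CD8 chains CD8A and CD8B. It held less RNA of the replicative helicase, of mitotic kinesins and of collagens and other matrix proteins. With the 2 groups fitted alone, edgeR's quasi-likelihood test called 453 of 14571 tested genes at a Benjamini-Hochberg adjusted p under 0.05, or 3.11%, and 2781 genes had an unadjusted p under 0.05. Of the 453, 183 were higher in experimental neobladder (1.26% of the genes tested) and 270 were lower (1.85%). With the 4 groups in 1 fit, which shares its estimate of the spread with peritoneum and control neobladder, 16 of 16549 genes were called (0.0967%), 7 higher (0.0423%) and 9 lower (0.0544%), and all 16 were among the 453. The biological coefficient of variation, the relative spread between replicates, was 0.251 in the first fit and 0.382 in the second. Calls, fold changes and adjusted p-values below are those of the 2 groups alone unless the 4 groups are named. On simulated data with known changes, the fit of the 2 groups alone made more wrong calls than its threshold allows.

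The levels of the 453 genes did not overlap between the groups in any case, and the smallest fold among them was 1.83. Over all tested genes, both experimental libraries lay above both native libraries in 3616 genes (24.8%) and below both in 3775 (25.9%). A gap of at least 2-fold between the nearest libraries, computed on CPM with 0.5 added, was found in 245 genes in the higher direction (1.68%) and 402 in the lower (2.76%). Of these 647 genes, 342 were called, 133 higher and 209 lower, and 305 were not. With 2 libraries a side an exact two-sided permutation test cannot give a p under 0.333, so the gaps are a description. The median log2 fold change over all tested genes was -0.01.

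**Figure D1:**
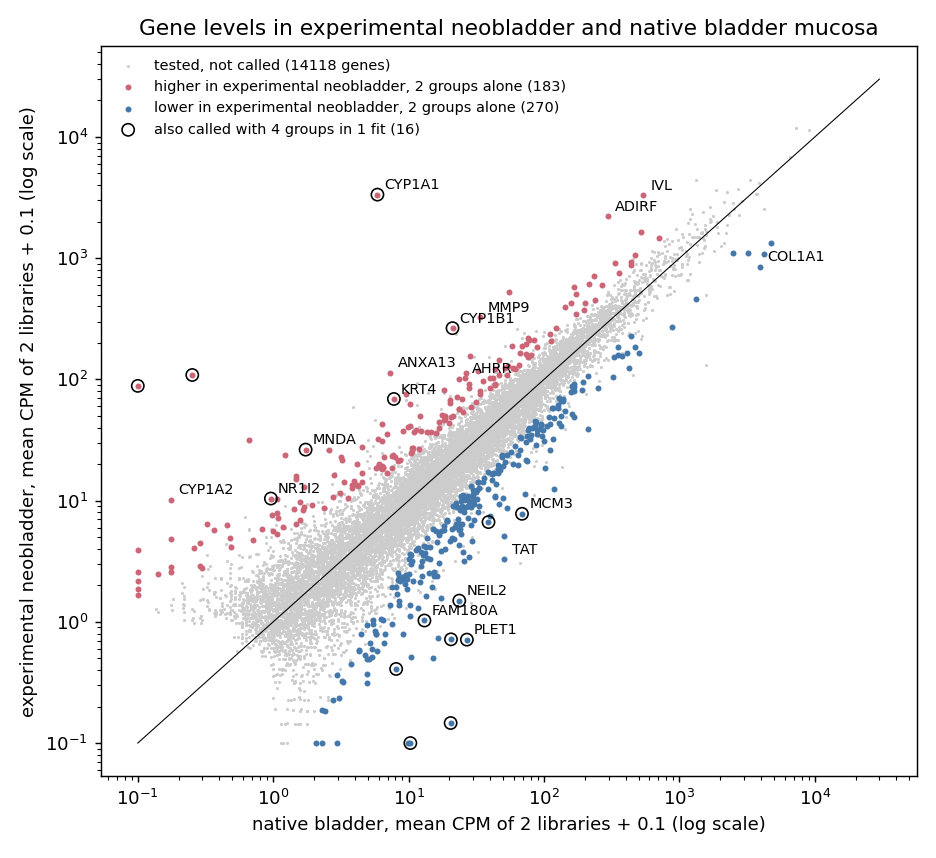
Mean level of each tested gene in native bladder (x axis, CPM + 0.1, log scale) and in experimental neobladder (y axis, same scale), with the line of equal levels; red and blue points are the 183 genes called higher and the 270 called lower with the 2 groups alone, and rings mark the 16 genes also called with the 4 groups in 1 fit. CYP1A1 lies farthest from the line among the genes with labels, at means of 5.79 and 3344 CPM.

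Of 16 tested members of the aryl hydrocarbon receptor pathway 4 were higher in experimental neobladder, against 1.26% of all tested genes, and none was lower. The log2 fold changes were split, 8 above 0 and 8 below, from -2.86 to 9.16, with a median of 0.17. The groups were at least 2-fold apart in 4 members that were higher and 1 that was lower, against 1.68% and 2.76% of all tested genes. DESeq2 called 5 higher and 1 lower. CYP1A1 (ENSSSCG00000001906, chr7:58802887-58809155 in Sscrofa11.1), which oxidises polycyclic aromatic hydrocarbons, stood at 6.87 and 4.71 CPM in native bladder and at 2623 and 4065 CPM in experimental neobladder. The nearest libraries were 357-fold apart. The log2 fold change was 9.16 ± 0.40 (SE), with adjusted p = 7.42e-06 for the 2 groups alone and adjusted p = 0.00122 with the 4 groups in 1 fit. Peritoneum had 5.81 and 3.65 CPM of this RNA, close to native bladder, and control neobladder had 843 and 466 CPM.

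CYP1A2 (ENSSSCG00000001901), a related enzyme best known from the liver, lies beside CYP1A1 at chr7:58779529-58786155. It had 2 counts in the native libraries together and 226 in the experimental libraries, or 8.98 and 11.1 CPM in the latter. The ratio of the summed counts, corrected for library size, was 129 with an exact 95% interval of 35.3 to 1071 that covers counting error only. CYP1A1 and CYP1A2 are close copies of each other, and how the authors' counting shared reads between such copies is not stated. CYP1B1 (ENSSSCG00000033844), the family member found mostly outside the liver, stood at 28 and 14 CPM in native bladder and 163 and 366 CPM in experimental neobladder. The groups were 5.71-fold apart at the nearest libraries, while peritoneum (27.1 and 31.4 CPM) and control neobladder (31.6 and 25.1 CPM) lay in the range of the higher native library. Its log2 fold change was 3.63 ± 0.56 (SE), with adjusted p = 0.046 for the 2 groups alone and 0.034 with the 4 groups. The second of these calls was lost whichever of the 4 libraries was left out, and without peritoneum replicate 2.

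AHRR (chr16:79730920-79810183), the repressor of the receptor, stood at 24.3 and 27.3 CPM in native bladder and 74.2 and 130 CPM in experimental neobladder, with a log2 fold change of 1.97 ± 0.28 (SE) and adjusted p = 0.00741. Both experimental libraries lay above every library of the other 3 groups. The receptor itself, AHR, was at 23.6 and 23.5 CPM against 22.6 and 13.4 CPM and was not called (adjusted p = 0.534). NQO1, a quinone reductase shared with the oxidative stress response, was not called either, at 1105 and 1012 CPM against 1716 and 1303 CPM (adjusted p = 0.284).

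Among 14 nuclear receptors of xenobiotics and bile acids, 1 was called, against 3.11% of all tested genes. NR1I2 (ENSSSCG00000011890, chr13:140373571-140406129), the pregnane X receptor, which senses drugs and bile acids, stood at 1.05 and 0.672 CPM in native bladder and 11.6 and 8.99 CPM in experimental neobladder. The groups did not overlap, yet control neobladder was higher again, at 298 and 169 CPM, and peritoneum had 0 and 0.0891 CPM. The log2 fold change was 3.56 ± 0.47 (SE), with adjusted p = 0.00458. Of the other enzymes that handle foreign compounds, 1 of 17 cytochrome P450 and other oxidation enzymes outside the CYP1 family was higher. Of 23 conjugation and export genes 1 was higher and 1 lower, and of 23 glutathione and oxidative defence genes 1 was higher. Over all tested genes 1.26% were called higher and 1.85% lower. ALDH2, the mitochondrial aldehyde dehydrogenase, went from 214 and 258 CPM in native bladder to 758 and 670 CPM. The microsomal glutathione transferase MGST2 stood at 7.92 and 12.4 CPM against 42.6 and 39.7 CPM. GSTM3, a cytosolic glutathione transferase, was lower, at 8.97 and 11.5 CPM against 0.17 and 0.649 CPM (log2 fold change -4.65, adjusted p = 0.00371). GPX3, a secreted glutathione peroxidase, was higher, with a log2 fold change of 1.31 and adjusted p = 0.0104.

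**Figure D2:**
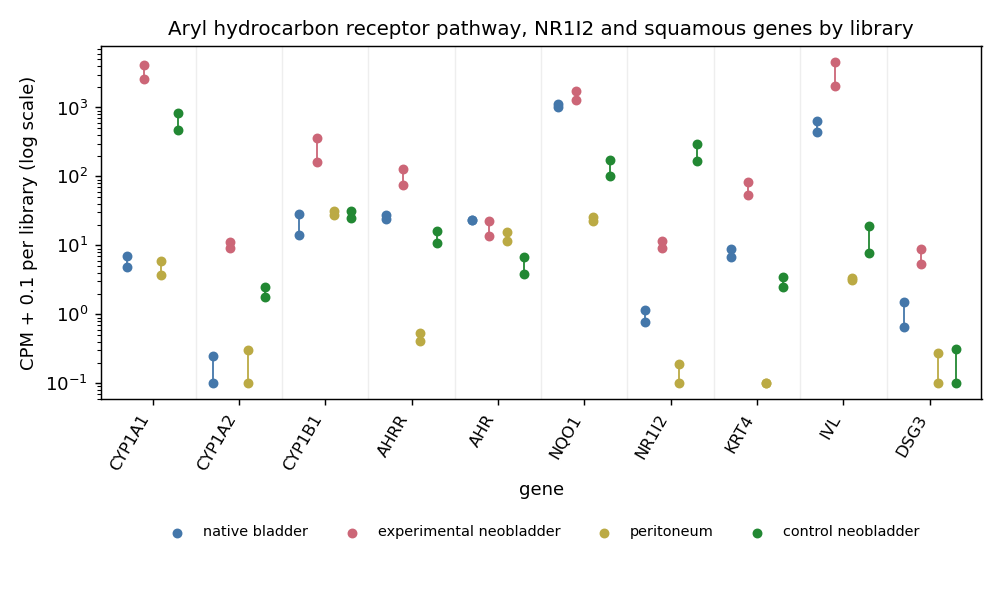
Level in each library (y axis, CPM + 0.1, log scale) of genes of the aryl hydrocarbon receptor pathway, NR1I2 and squamous genes (x axis), with 2 points a group joined by a line. CYP1A1 is high in both kinds of neobladder, CYP1B1, AHRR, KRT4 and IVL are highest in experimental neobladder, and NR1I2 is highest in control neobladder.

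Squamous genes were higher in part. Of 15 tested genes of squamous and cornified layers, 3 were higher and 1 was lower, against 1.26% and 1.85% of all tested genes, with a median log2 fold change of 0.58 that became 0.16 without native replicate 2. KRT4 (ENSSSCG00000024610, chr5:18091742-18099086), a keratin of layered mucosal epithelia, stood at 8.64 and 6.72 CPM in native bladder and 84.1 and 53.6 CPM in experimental neobladder. It had 0 counts in peritoneum and 2.4 and 3.37 CPM in control neobladder. The nearest libraries of the 2 groups were 5.80-fold apart, the log2 fold change was 3.15 ± 0.31 (SE) and the adjusted p was 0.00133. IVL, which encodes involucrin, a precursor of the cornified envelope, was already at 641 and 444 CPM in native bladder and reached 2058 and 4567 CPM, with a log2 fold change of 2.59 and adjusted p = 0.0176. DSG3, a cadherin of desmosomes in layered epithelia, was low in both groups, at 0.565 and 1.42 CPM against 5.34 and 8.81 CPM (adjusted p = 0.0302), and its call was lost without native replicate 1 or experimental replicate 2. ECM1, a secreted protein of skin matrix and cornified layers, was lower, at 514 and 422 CPM against 171 and 202 CPM (adjusted p = 0.0112), and lost its call without experimental replicate 1.

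Genes of urothelial identity were called in 1 case, where 3.11% of all tested genes were called. That was none of 6 uroplakin and plaque genes, none of 14 basal epithelial genes and 1 of 19 urothelial transcription factors. The 1 called, OVOL1, a zinc finger repressor of transcription, was lower, at 89.9 and 56.7 CPM in native bladder and 20.2 and 23.1 CPM in experimental neobladder. The median log2 fold changes of the lists were -0.41, -0.02 and 0.06. The uroplakin list rested on single libraries. Without experimental replicate 2, 4 of its 6 genes were called lower and the median was -1.46, and without experimental replicate 1, 1 was called higher and the median was 0.08. The log2 fold change of UPK2 was -1.61 in the former case and 0.14 in the latter.

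Genes of the replicative helicase were lower in experimental neobladder. Of 25 tested helicase and origin licensing genes 8 were lower, against 1.85% of all tested genes, and none was higher. The median log2 fold change of the members was -1.01, and 24 of the 25 were below 0. MCM3 (ENSSSCG00000025488, chr7:46084648-46104425), a subunit of the MCM ring, stood at 86.1 and 51.3 CPM in native bladder and 8.14 and 7.23 CPM in experimental neobladder. The groups were 5.99-fold apart at the nearest libraries. The log2 fold change was -3.17 ± 0.32 (SE), with adjusted p = 0.00133 for the 2 groups alone. With the 4 groups it was 0.034, a call that was lost whichever of the 4 libraries was left out. Peritoneum, at 11.1 and 8.2 CPM, was as low as experimental neobladder, and control neobladder, at 75.5 and 43.8 CPM, was as high as native bladder.

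The other subunits of the ring were lower to unequal degrees. MCM2 stood at 65.5 and 36.2 CPM in native bladder against 6.7 and 3.25 CPM in experimental neobladder, a log2 fold change of -3.36 (adjusted p = 0.00741). MCM4 had a log2 fold change of -2.64, MCM5 of -2.35 and MCM6 of -1.32. MCM7 was at 134 and 116 CPM against 72.6 and 66.5 CPM and was not called (adjusted p = 0.057), although the groups did not overlap. Of the proteins that load or activate the ring, the GINS subunit GINS1 stood at 16.7 and 14 CPM against 2.88 and 2.04 CPM, with a log2 fold change of -2.65. The origin recognition subunit ORC1 had a log2 fold change of -2.15 and CDC45 of -1.73. Without experimental replicate 2, 5 of the 25 genes were called. Without 1 or another library the calls of MCM6 (native replicate 1, either experimental replicate), ORC1 (native replicate 1, experimental replicate 2) and CDC45 (experimental replicate 2) were lost.

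All 26 tested mitosis genes had a log2 fold change below 0, with a median of -1.87, and 24 lay below native bladder without overlap, against 25.9% of all tested genes. Only 3 passed the test, against 1.85% of all tested genes that were called lower. KIF20A, a kinesin of cell division, stood at 16.6 and 18.1 CPM in native bladder and 2.03 and 0.927 CPM in experimental neobladder. KIF23, a second kinesin of the dividing midzone, stood at 14.3 and 15.5 CPM against 2.54 and 1.11 CPM. CCNB1, the mitotic cyclin B1, stood at 14.7 and 16 CPM against 2.97 and 1.58 CPM, and its log2 fold change was -2.75 ± 0.40 (SE), with adjusted p = 0.00727. In 14 of the 26 genes experimental neobladder was lower with the groups at least 2-fold apart, against 2.76% of all tested genes. For many of these 14 the 2 experimental libraries differed widely. CDK1, the mitotic kinase, was at 16 and 13.4 CPM against 3.56 and 0.556 CPM (adjusted p = 0.0752). TOP2A, which untangles chromosomes, was at 38.3 and 19.8 CPM against 8.31 and 1.48 CPM (adjusted p = 0.219). Without experimental replicate 1, 17 of the 26 were called lower, and without experimental replicate 2, 7 were. DESeq2 called 13 on all 4 libraries.

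Genes of DNA synthesis and recombination lay mostly below native bladder, and most were not called. Of 25 DNA synthesis genes 24 had a log2 fold change below 0, with a median of -0.53, and 17 did not overlap, against 25.9% of all tested genes. The 1 called lower was TYMS, which makes thymidylate, at 17.9 and 18.4 CPM against 5.42 and 6.68 CPM, and its call was lost without experimental replicate 1. Of 25 genes of homologous recombination and the Fanconi pathway 3 were lower, against 1.85% of all tested genes. They were BLM, FANCD2 and RBBP8, with log2 fold changes of -2.53, -1.54 and -1.23, and the median over the list was -1.09. In this list also 17 genes lay below native bladder without overlap, and 3 lay above, against 25.9% and 24.8% of all tested genes. Without native replicate 1, 0 members of this list were called, and the calls of BLM and RBBP8 were also lost without either experimental library and that of FANCD2 without any of the 4. Base excision repair and nucleotide excision repair each held 1 called gene, of 19 and 18 tested, with medians near 0 (-0.10 and -0.20). NEIL2, a DNA glycosylase that removes oxidised bases, stood at 19.9 and 27.3 CPM in native bladder and 1.86 and 0.927 CPM in experimental neobladder, against 9.78 and 12.9 CPM in peritoneum and 8.06 and 9.37 CPM in control neobladder. ERCC3, a helicase of the general transcription factor TFIIH, stood at 37.7 and 39.9 CPM against 5.59 and 7.51 CPM, with 24.2 to 34.4 CPM in the 4 other libraries. For both genes the 2 experimental libraries were the lowest of all 8. The log2 fold changes were -4.07 ± 0.41 (SE) for NEIL2 and -2.58 ± 0.28 (SE) for ERCC3.

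**Figure D3:**
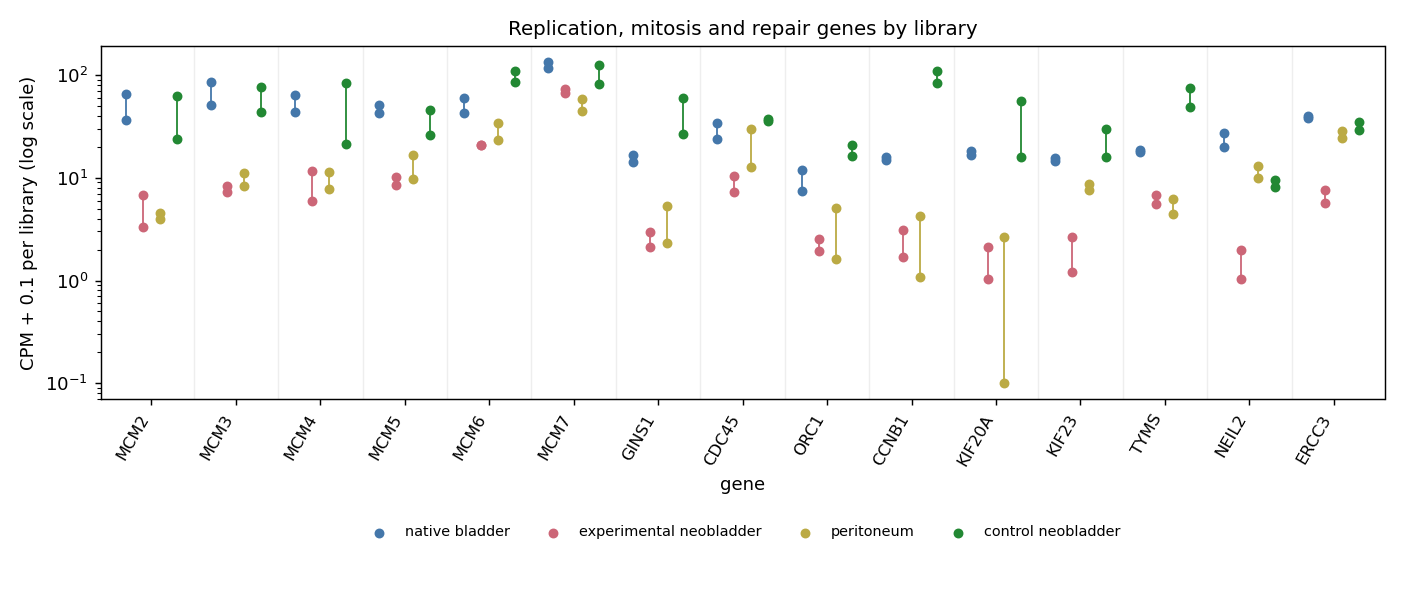
Level in each library (y axis, CPM + 0.1, log scale) of replication, mitosis and repair genes (x axis), with 2 points a group joined by a line. For MCM2 to MCM6, CCNB1, KIF20A and KIF23 the native bladder libraries lie above both experimental libraries, and for NEIL2 and ERCC3 the experimental libraries are the lowest of all 8.

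Genes of fibroblasts and extracellular matrix were the list with the most calls. Of 36 tested members 19 were lower in experimental neobladder, against 1.85% of all tested genes, and none was higher. The median log2 fold change was -1.08, and 35 of the 36 lay below native bladder without overlap, against 25.9% of all tested genes. The 37 list genes in the data summed to 19508 and 21348 CPM in native bladder and 6135 and 6652 CPM in experimental neobladder. Peritoneum had 85180 and 104425 CPM and control neobladder 3923 and 1975 CPM. Without native replicate 1 the count was 13, and without experimental replicate 1 it was 12.

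COL1A1, a chain of type I collagen, stood at 4144 and 3747 CPM in native bladder and 812 and 890 CPM in experimental neobladder. Its partner chain COL1A2 stood at 4650 and 4776 CPM against 1344 and 1309 CPM. COL3A1, which forms the fine fibrils of soft tissue, stood at 3082 and 5293 CPM against 1091 and 1082 CPM. The groups were at least 2.85-fold apart for each of these 3 genes, with log2 fold changes of -2.23 ± 0.23, -1.84 ± 0.23 and -1.96 ± 0.29 (SE). The adhesive glycoprotein FN1 was lower, at 320 and 323 CPM against 93.8 and 116 CPM, as was SPARC, a collagen-binding protein, at 2989 and 3423 CPM against 991 and 1236 CPM. The small leucine-rich proteoglycans LUM and OGN, which space collagen fibrils, had log2 fold changes of -1.72 and -2.48. POSTN, a matricellular protein of remodelling tissue, stood at 235 and 191 CPM against 51.7 and 25.7 CPM. COL4A1, a basement membrane collagen, was lower with a log2 fold change of -1.08. Single libraries decided the calls of COL4A1 (lost without native replicate 1 or experimental replicate 2) and OGN (lost without experimental replicate 1).

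Among 22 genes of myofibroblasts and of the response to TGF-beta, 5 were lower, against 1.85% of all tested genes, and none was higher, with a median log2 fold change of -0.78. Without native replicate 1, 4 were lower and 1 was higher (median -0.51), and without native replicate 2, 8 were lower (median -1.15). CTHRC1, a secreted protein of activated fibroblasts, stood at 24.2 and 31.5 CPM in native bladder and 3.22 and 3.43 CPM in experimental neobladder, a log2 fold change of -3.08 ± 0.31 (SE). The collagen cross-linking oxidases LOX and LOXL2 had log2 fold changes of -1.31 and -1.73, and the matricellular genes CCN3 and CCN4 of -1.39 and -1.40. The call of LOX was lost without experimental replicate 2, and that of CCN4 without native replicate 1 or experimental replicate 1. Of 21 smooth muscle genes tested, 2 were higher, against 1.26% of all tested genes, and none was lower, with a median of 0.41. Their summed levels were 7289 and 7358 CPM in native bladder and 8488 and 9355 CPM in experimental neobladder. MYH11, smooth muscle myosin, went from 135 and 151 CPM to 386 and 405 CPM.

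Of 22 matrix proteases and inhibitors 1 was higher and 1 lower, against 1.26% and 1.85% of all tested genes. The median log2 fold change was -0.33, and the calls and the median moved with single libraries: without native replicate 1, 4 were higher and 0 lower (median 0.34), and without native replicate 2, 0 were higher and 2 lower (median -0.48). The median was 0.068 without experimental replicate 1. The gelatinase MMP9 stood at 30.6 and 36.9 CPM in native bladder and 454 and 198 CPM in experimental neobladder, and the aggrecanase ADAMTS5 at 36.8 and 27.5 CPM against 11.4 and 12.8 CPM. The call of MMP9 was lost without either native library, and that of ADAMTS5 without native replicate 1 or either experimental library. Among 26 Hedgehog and BMP genes 3 were lower, against 1.85% of all tested genes. They were the BMP target ID2, at 379 and 632 CPM against 181 and 150 CPM, the BMP antagonist CHRD and the follistatin-related FSTL1. CHRD and FSTL1 had log2 fold changes of -1.58 and -0.97. The call of ID2 was lost without experimental replicate 2, that of CHRD without any of the 4 libraries, and that of FSTL1 without native replicate 2 or either experimental library. Of 30 Wnt pathway genes 1 was higher, the ligand WNT5A, at 21.5 and 25.1 CPM against 59.7 and 53.6 CPM, and this call was lost without experimental replicate 1.

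Of 20 tested T and NK cell genes 5 were higher in experimental neobladder, against 1.26% of all tested genes, and none was lower. The median log2 fold change of the list was 0.41. It was -0.092 without experimental replicate 1, where 4 were higher and 1 was lower. CD8B, a chain of the CD8 co-receptor of killer T cells, stood at 2.58 and 2.39 CPM in native bladder and 30.4 and 22 CPM in experimental neobladder, a log2 fold change of 3.38 ± 0.34 (SE) with adjusted p = 0.00133. CD8A, the other chain, stood at 20.7 and 14.1 CPM against 61 and 40.8 CPM, and its call was lost without experimental replicate 1. The granule protease GZMH stood at 7.03 and 12.5 CPM against 33.1 and 47.9 CPM, and the chemokine CCL5 at 19.1 and 21.3 CPM against 62.3 and 64.8 CPM. The fifth was 1 of the 2 Ensembl genes with the symbol GZMA (ENSSSCG00000016902). CD3D, a part of the receptor complex of all T cells, overlapped between the groups, at 27.7 and 23.8 CPM against 39 and 23.9 CPM (adjusted p = 0.665).

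IL17A, a cytokine of T cells, was lower. It stood at 6.3 and 5.16 CPM in native bladder and 0.763 and 0.185 CPM in experimental neobladder, a log2 fold change of -3.55 with adjusted p = 0.021. IL22, a cytokine that acts on epithelia, and ICOS, a co-stimulatory receptor of T cells, were called lower too and were chosen after their values were seen. IL22 stood at 5.01 and 4.63 CPM against 0.339 and 0.0927 CPM, and ICOS at 10.7 and 7.84 CPM against 3.05 and 1.48 CPM. The call of ICOS was lost without native replicate 1 or experimental replicate 2.

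Other immune lists held at most 2 calls each. Of all tested genes, 1.26% were called higher and 1.85% lower. Of 18 macrophage and dendritic cell genes 1 was higher and 1 lower: MNDA, a nuclear protein of myeloid cells, at 1.78 and 1.49 CPM against 34.4 and 18.1 CPM, and the mannose receptor MRC1, at 18.2 and 18.2 CPM against 5.76 and 5.56 CPM. The summed level of this list was 2026 and 2338 CPM in native bladder and 1912 and 1917 CPM in experimental neobladder. Of 31 interferon response genes 2 were lower, OAS2 and IFIT1, with a median of -0.42, and the call of IFIT1 was lost without native replicate 1 or experimental replicate 2. Of 17 antimicrobial genes the receptor TLR2 was higher, at 35 and 35.6 CPM against 115 and 78.9 CPM. Of 22 endothelial genes CCL21, a chemokine of lymphatic vessels, was higher, at 12.2 and 6.8 CPM against 71.3 and 79.7 CPM. Of 17 B and plasma cell genes SDC1, a proteoglycan that epithelial cells carry too, was higher, at 635 and 411 CPM against 1478 and 1822 CPM. None of 13 neutrophil and acute inflammation genes and none of 7 MHC class II genes was called.

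**Figure D4:**
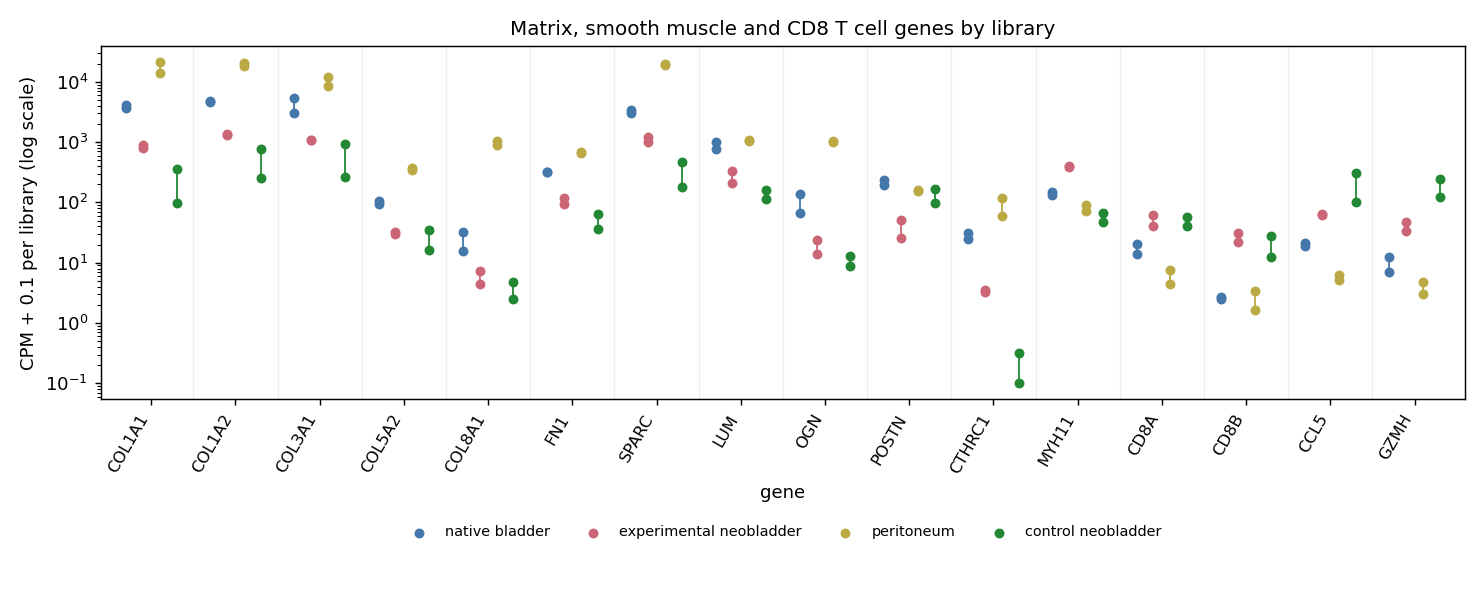
Level in each library (y axis, CPM + 0.1, log scale) of matrix, smooth muscle and CD8 T cell genes (x axis), with 2 points a group joined by a line. Matrix genes lie lower in both experimental libraries than in native bladder and, apart from POSTN, are highest in peritoneum, while MYH11, CD8A, CD8B, CCL5 and GZMH lie higher in experimental neobladder than in native bladder.

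Genes of bladder surface functions changed singly. Of 33 water, ion and urea transport genes 3 were higher and 1 was lower, against 1.26% and 1.85% of all tested genes. The urea transporter SLC14A1 stood at 69.9 and 83.3 CPM in native bladder and 142 and 163 CPM in experimental neobladder. The sodium channel subunit SCNN1A stood at 1.62 and 1.57 CPM against 12 and 5.66 CPM, and the carbonic anhydrase CA12 at 177 and 168 CPM against 383 and 310 CPM. ATP1B1, a subunit of the sodium pump, was lower, at 230 and 268 CPM against 86.7 and 83.6 CPM (adjusted p = 0.00426). Without experimental replicate 1 none of the 3 higher genes was called. The call of SLC14A1 was also lost without native replicate 1 or experimental replicate 2, and that of CA12 without either native library. Of 17 claudin and tight junction genes 1 was lower, against 1.85% of all tested genes, and none was higher. The lower gene was CLDN8, a claudin that limits sodium leak, at 20.2 and 30.6 CPM against 3.64 and 2.5 CPM. CLDN8 had 0 counts in peritoneum and in control neobladder. In this list 12 log2 fold changes were above 0 and 5 below, from -3.05 to 3.99. The groups were at least 2-fold apart in 1 gene that was higher and 1 that was lower, against 1.68% and 2.76% of all tested genes. DESeq2 called 1 higher and 1 lower.

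Lists of bowel and mesothelium held at most 2 calls each, where 1.26% of all tested genes were called higher and 1.85% lower. Of 14 enterocyte genes tested, 1 was lower, the brush border peptidase ANPEP, at 40.6 and 42.9 CPM against 13.6 and 20 CPM. The 15 intestinal identity genes in the data, tested or not, summed to 407 and 482 CPM in native bladder. In experimental neobladder they summed to 884 and 758 CPM, and in control neobladder to 8358 and 7303 CPM. Among the 10 tested 1 was higher and 1 was lower. The higher was the galectin LGALS4, at 321 and 399 CPM against 818 and 689 CPM. It made up most of the sum in native bladder and experimental neobladder. The call of ANPEP was lost without experimental replicate 1, and that of LGALS4 without native replicate 1 or either experimental library. None of 7 goblet, 2 enteroendocrine and 7 mesothelial genes tested was called, and none of 16 HOX genes, which record position along the body axis. The 13 mesothelial genes in the data, tested or not, summed to 139 and 115 CPM in native bladder. In experimental neobladder they summed to 191 and 240 CPM, and in peritoneum to 378 and 408 CPM. Of the 16 HOX genes 2 were at least 2-fold apart and lower in experimental neobladder, against 2.76% of all tested genes. HOXC8 stood at 1.13 and 0.971 CPM in native bladder and 0 counts in experimental neobladder (adjusted p = 0.0599), against 26.2 and 27.8 CPM in peritoneum. HOXC9 stood at 0.969 and 1.72 CPM against 0.0848 CPM and 0 counts (adjusted p = 0.0653), with 21 and 23.2 CPM in peritoneum. DESeq2 called 1 of the 16 lower, and with at least 10 counts required in every library of 1 group, edgeR called 2.

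The remaining named genes had the largest fold changes outside these lists. Higher were ANXA13, an annexin of polarised epithelia, at 7.03 and 7.47 CPM against 134 and 93.6 CPM, the monocarboxylate transporter SLC5A8, at 1.53 and 1.2 CPM against 22.4 and 7.51 CPM, and STEAP1, at 1.05 and 0.897 CPM against 13.1 and 7.42 CPM. AP5Z1, of an adaptor complex of late endosomes, stood at 1.86 and 0.897 CPM against 16.7 and 14.9 CPM, and PPP4R4, a regulatory subunit of a protein phosphatase, at 0 and 0.448 CPM against 7.71 and 5.01 CPM. The call of SLC5A8 was lost without native replicate 2. Genes of largest fold change were named only where the groups did not overlap, so these 5 did not overlap by selection.

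Lower genes with large fold changes were led by C20orf202, which had 9.21 and 10.3 CPM in native bladder and 0 counts in both libraries of experimental neobladder. With that group set to 3 counts in all, its level was at least 73.5-fold lower. PLET1, a surface protein first described in placenta, stood at 28.3 and 25.4 CPM against 0.763 and 0.464 CPM. BEX4 and BEX1 are neighbouring genes on chromosome X. BEX4 stood at 23.5 and 17.4 CPM against 0.678 and 0.556 CPM, and BEX1 at 15.9 and 16.3 CPM against 1.44 and 3.15 CPM. No other of the 7 BEX and TCEAL genes tested was called, where 1.85% of all tested genes were called lower. PRND, a paralogue of the prion gene, stood at 12 and 18.2 CPM against 0.254 and 0.556 CPM. FAM180A stood at 16.6 and 9.34 CPM against 1.02 and 0.835 CPM, and TAT, the tyrosine aminotransferase, at 41.2 and 60.6 CPM against 5.09 and 1.3 CPM. MYBPC1, a myosin-binding protein, and DGKB, a diacylglycerol kinase, had log2 fold changes of -3.68 and -3.69. The calls of TAT (without either native library) and DGKB (without native replicate 1 or experimental replicate 1) were lost.

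Of the 16 genes called with the 4 groups in 1 fit, 11 had a symbol and are given above. The other 5 had none, of which 4 are given here. ENSSSCG00000013902 had 0 counts in native bladder and 82.7 and 93.9 CPM in experimental neobladder, at least 759-fold higher by the same bound, and ENSSSCG00000005961 stood at 0.0808 and 0.224 CPM against 66.8 and 151 CPM. Both were at or below 1.69 CPM in every library of the other groups. ENSSSCG00000035226 had 11.1 and 9.34 CPM in native bladder and 0 counts in experimental neobladder, at least 76.8-fold lower, and ENSSSCG00000032135 had 520 counts against 1, with 4.38 to 28.3 CPM in the 4 other libraries.

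**Figure D5:**
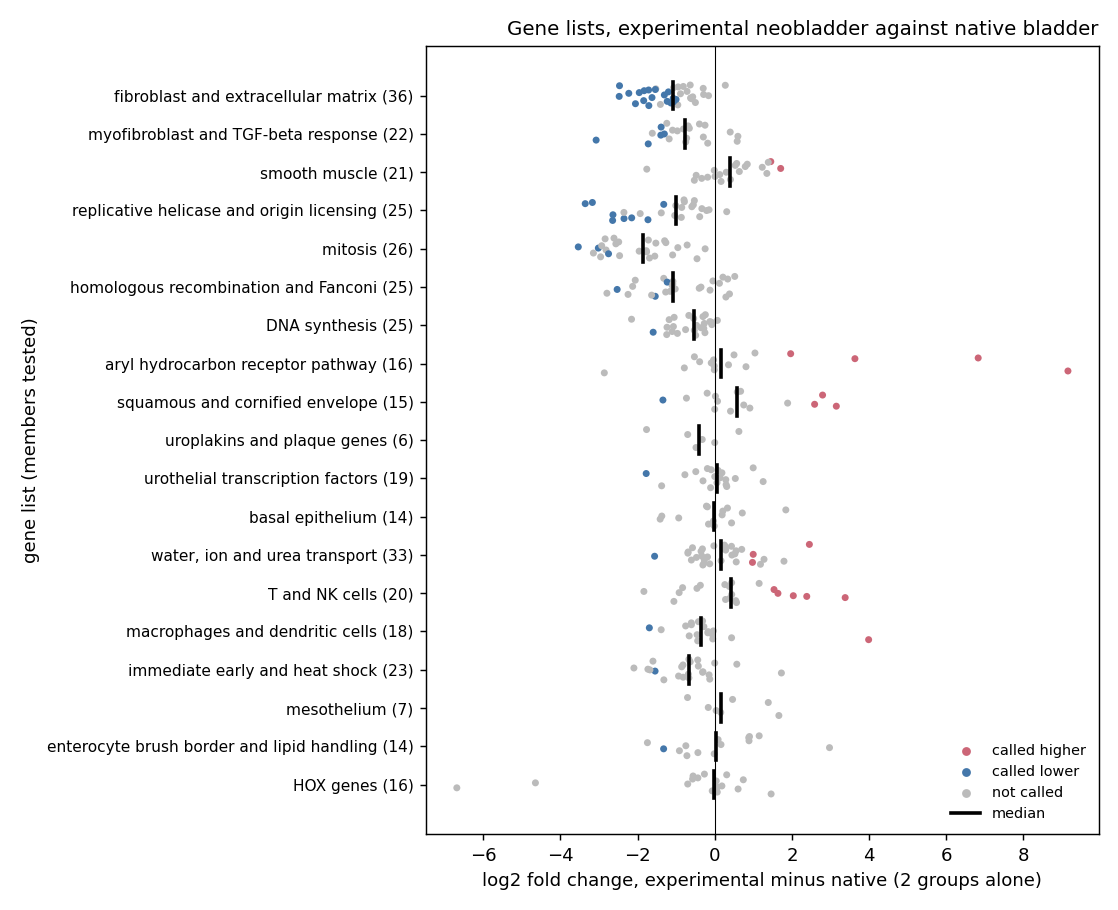
Log2 fold change of each tested member (points; x axis, experimental neobladder minus native bladder, 2 groups alone) for 19 gene lists (y axis, number tested in brackets), with red and blue points for members called higher and lower, grey points for members not called and a black bar for the median. The matrix, mitosis, helicase and recombination lists have medians at or below -1.01, while the median over all tested genes was -0.01.

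Measures of RNA quality and handling differed between the groups as well, and their part in the results above was not tested. Over all tested genes 1.26% were called higher and 1.85% lower. Of 26 cytosolic ribosomal protein genes 25 had a log2 fold change above 0, with a median of 0.58 and 1 called higher, RPL23. In 23 of the 26 both experimental libraries lay above both native libraries, against 24.8% of all tested genes. In 0 of the 26 they lay below both, against 25.9%. Of 12 mitochondrially encoded genes 1 was lower, ND4, with a median of -0.76. Without native replicate 2, 7 of them were lower (median -1.15), without native replicate 1, 0 were (median -0.29), and DESeq2 called 5 lower. Of 23 immediate early and heat shock genes 21 were below 0, with a median of -0.67, and 1 was called, EGR1, at 1618 and 1035 CPM against 378 and 541 CPM. These calls were lost without native replicate 1 or experimental replicate 2 (RPL23), without native replicate 1 or either experimental library (ND4), and without experimental replicate 1 (EGR1). Fold change and length of the gene on the genome had a Spearman correlation of -0.141 across the 10868 tested genes with 1 RefSeq entry. Within a group, the log2 level of replicate 1 minus 2 correlated with length at 0.124 in experimental neobladder and 0.0826 in native bladder. These values are descriptions over genes of the same libraries. The strand and the annotation release used for counting are not given in the sources used here, so reads of overlapping genes cannot be told apart.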

How the data were processed

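Messenger RNA was sequenced in 8 libraries of pig tissue, of which 4 are compared here. Raw counts per Ensembl gene were deposited by the authors, and the submitters' processing notes name the build Sscrofa11.1 and the tools HISAT2, Trim Galore and HTSeq 0.11.1. Settings, strand and annotation release are not given in the sources used here. Genes were filtered with filterByExpr and scaled by trimmed mean of M-values factors in edgeR 4.0.16 (R 4.3.3). The main tests were quasi-likelihood fits with robust spread, of the 4 groups together (4 residual degrees of freedom) and of the 2 groups alone (2), at a Benjamini-Hochberg adjusted p under 0.05 over all tested genes. The smaller fit rests on a spread estimated from 4 libraries, and on simulated data with known changes it made more wrong calls than its threshold allows, which the larger fit did not. Levels are CPM on the scale of the 8 libraries.

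The compared groups, the 58 gene lists and the tests were chosen with earlier results of these data known. Genes were named by rule: the markers CYP1A1, CYP1B1, NR1I2, KRT4 and MCM3, the genes with a symbol called in the 4-group fit, and, for each direction, the 12 called genes of largest fold change that had a symbol, 5 CPM or more in the higher group and no overlap. Up to 4 members of each list with the smallest p, its most abundant member and tissue markers were also eligible. Others are said to be chosen after their values were seen. Lists without a call that the text leaves out were counted but are not described, and a few single genes are not reported here. Coordinates are RefSeq's for Sscrofa11.1, matched by symbol. The alternatives tried were DESeq2 1.42.0, scaling by its size factors or by library totals, other filters and spreads, a test against a 1.5-fold change, a replicate block and each library left out. The 2 replicates of each group differed by more than sampling noise.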

Additional observations from a re-analysis of the deposited data

How the results depend on the processing

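With 2 libraries a side every call rests on a spread estimated from few samples, and in fits that leave 1 library in a group, that library is assumed to vary like the others. With the 4 groups in 1 fit, 16 genes were called. DESeq2 called 249, library totals alone 5, no low-count filter 352 and the test against a 1.5-fold change 10. Leaving out 1 library gave 3 to 297 calls, the lowest without experimental replicate 1 and the highest without either control neobladder library. Of the 11 of these genes with a symbol, CYP1A1 was called in every alternative of both fits. For the 2 groups alone, 453 genes were called. DESeq2 called 872, no low-count filter 1473 and the test against a 1.5-fold change 157, and leaving out 1 library gave 349 to 559, of which 229 (without experimental replicate 2) to 335 were among the 453. On library totals alone 29.9% of the calls were higher in experimental neobladder, against 40.4% as reported. The 647 genes with a 2-fold gap became 7391 with any gap and 95 with a 4-fold gap, and 1228 to 1653 with 1 library left out, where 1 side has a single value. The log2 fold change of UPK2 ran from -1.61 to 0.14 over the fits of the 2 groups that leave out 1 library and from -1.60 to 0.18 over those of the 4 groups. That of CD3D ran from -0.13 to 0.59 and from -0.094 to 0.61. The cause of these shifts was not tested, apart from the fewer genes tested or fewer samples that an alternative uses.

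The labels do not say that a replicate number pairs samples of different groups, and same-numbered experimental and native libraries deviated from their group means with a correlation of -0.114. With replicate number as a block, 14 genes were called in the fit of 4 groups and 667 in that of the 2 groups alone, in which CYP1B1, OGN and TAT were not called. With the numbers crossed, chosen after seeing the data, 522 were called.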

Other observations

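Further called genes, chosen after their values were seen, are given here as values. The following 4 genes act on collagen and were called lower in experimental neobladder. The collagen chaperone SERPINH1 stood at 336 and 368 CPM in native bladder and 137 and 179 CPM in experimental neobladder, FKBP10, a second chaperone of collagen folding, at 64.5 and 68.1 CPM against 27.4 and 24.8 CPM, the lysyl hydroxylase PLOD1 at 159 and 161 CPM against 83.8 and 90.9 CPM, and PCOLCE, which speeds the trimming of procollagen, at 211 and 179 CPM against 104 and 84.9 CPM. Both experimental libraries lay below both native libraries for each of the 4, as for every gene called lower. Each of these calls was lost when 1 library was left out, for PLOD1 whichever it was.

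Of 5 genes that act on fatty acids, 4 were called higher and 1 lower, and since they were picked by their calls their number says nothing of the pathway. PLIN2, which coats lipid droplets, stood at 202 and 230 CPM against 517 and 713 CPM. The acyl-CoA synthetase ACSL1 stood at 213 and 261 CPM against 468 and 441 CPM, the enoyl-CoA isomerase ECI2 at 66.8 and 63.6 CPM against 121 and 139 CPM, and the malic enzyme ME1 at 67.3 and 55.1 CPM against 113 and 129 CPM. Of these, PLIN2 was called in every alternative of the fit of the 2 groups, and the other 3 lost their calls when 1 of several libraries was left out. Lipoprotein lipase (LPL) was lower, at 22.3 and 27.6 CPM against 3.31 and 3.99 CPM. Of the 12 adipocyte genes tested, 1 was called lower, against 1.85% of all tested genes, and none was called higher.

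IL22RA1, a chain of the receptor of IL22, was higher while the cytokine was lower, at 0.969 and 0.822 CPM in native bladder against 7.2 and 3.8 CPM in experimental neobladder, and its call was lost without native replicate 2 or experimental replicate 1. Of the metalloreductases, STEAP1 and STEAP2 were higher and STEAP4 was lower. STEAP2 stood at 6.54 and 6.05 CPM against 49.6 and 36.6 CPM, and STEAP4 at 56.1 and 42.6 CPM against 12.2 and 8.44 CPM. These 3 calls were kept in every alternative of the fit of the 2 groups.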
